A study of Homo sapiens with 2 samples.

Results

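The 10 genes described here belong to the BCL2 family, the proteins that decide whether the outer membrane of the mitochondrion is opened during apoptosis. They were chosen by symbol: BCL2, BCL2L1, MCL1, BCL2L11, BAX, BAK1, BID, BAD, BBC3 and PMAIP1. Each of the 10 symbols had 1 row of annotated genes in both tables, out of 55773 symbols found in both. RNA-seq was run on NCI-H2030, an established human lung adenocarcinoma cell line, in 2 libraries, 1 labelled as treated with SC and 1 as treated with miR-494-3p AS. The labels spell out neither SC nor AS, and give no dose or time. Each group was a single library with no replicate, so every difference below is one between 2 libraries, and no test, error or p-value exists for it. The libraries are called SC and AS.

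In the cell, guardian proteins of this family (BCL2, BCL-XL from BCL2L1, and MCL1) bind and hold back the effectors BAX and BAK, which otherwise assemble into pores and release cytochrome c. The BH3-only proteins, among them BIM (BCL2L11), BID, BAD, PUMA (BBC3) and NOXA (PMAIP1), sense stress and either occupy the guardians or engage the effectors. The balance is set largely by protein binding, phosphorylation and turnover, so transcript levels describe only part of it.

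The microRNA named in the treatment pairs with messenger RNAs through its seed, bases 2 to 8 from its 5′ end. Its mature sequence and the stretches of member transcripts that match the seed are shown because BCL2L11 has been described as a target of this microRNA. The microRNA is given by RefSeq (GRCh38.p14, chr14:101029681-101029702, plus strand) with the seed in capitals. The other lines are 30-base stretches from the member's 3′ UTR, the longest one in GENCODE release 29 (GRCh38), with the seed match in capitals.
hsa-miR-494-3p: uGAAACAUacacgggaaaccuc
BCL2L11: atgtgtcctacTGTTTCAtaatgctgtaac
MCL1: cagtcctctagTGTTTCAtgtacattctgt
PMAIP1: ataagatatgaATGTTTCtaaagaagtttc
BBC3: atgatttttgtATGTTTCcttttcaataaa

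These stretches lie at chr2:111167049-111167078 on the plus strand for BCL2L11, chr1:150574717-150574746 on the minus strand for MCL1, chr18:59903606-59903635 on the plus strand for PMAIP1 and chr19:47220841-47220870 on the minus strand for BBC3, all in GRCh38. The search used ATGTTTC, which pairs with bases 2 to 8, TGTTTCA, which pairs with bases 2 to 7 and has an A opposite base 1, and ATGTTTCA, which contains both. Only the transcript strand was read, and overlapping matches were counted once. Of the 10 members, 5 held a match: these 4 with 1 each, and BCL2 with 2 copies of TGTTTCA. None held the 8-base form, which 6.43% of measured genes with a 3′ UTR held. BCL2L1, BAX, BAK1, BID and BAD held no match. Among all 10563 measured genes with an annotated 3′ UTR, 27.6% held at least 1. In BCL2L11 the match is at bases 3095 to 3101 of a 3′ UTR of 4480 bases. Of its 13 coding transcripts with a complete 3′ UTR, 8 include it. A match is a description of the letters and not evidence that the microRNA acts there.

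Both libraries came from cells with the keratins of simple epithelium. KRT8 was at 486 TPM (a share of all transcripts, corrected for transcript length) in SC and 345 in AS, and KRT18 at 558 and 479. KRT19 was listed at 0 in both, CDH1, the epithelial cadherin, was at 0.00741 and 0.0137 TPM, and EPCAM was at 0.604 and 1.84. Of 15 marker genes 14 had a row. Leukocyte and endothelial markers were at most 0.194 TPM, and of the fibroblast markers COL1A1 alone was above 0.03, at 26.3 and 15.8 TPM. The coverage per unit of FPKM, which follows the aligned bases of a library, was 3.62 in SC and 3.54 in AS, so the depths were close. The tables hold no read counts, so no counting interval could be set on any value.

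**Figure D1:**
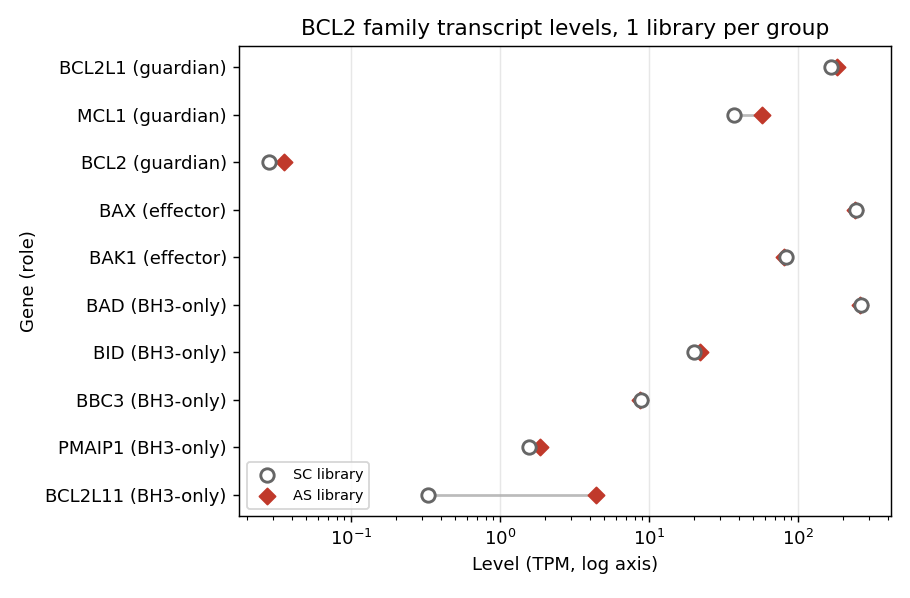
Level of each of the 10 BCL2 family genes in TPM (horizontal, log axis), grouped by role, with the SC library as an open circle and the AS library as a filled diamond, and no error bars because each group is 1 library. The pairs nearly coincide except for MCL1 (37.1 and 57.1 TPM) and BCL2L11 (0.327 and 4.43 TPM).

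Most of the family stood at nearly the same level in both libraries. Across the 10 members, 1 (BCL2L11) was at least 2-fold higher in AS in the TPM column and none was at least 2-fold lower, counted on log2((AS + 1)/(SC + 1)). Annotated genes whose mean level reached 1 TPM, 13669 in all, are called measured here, and 16.5% of them passed 2-fold upward and 2.17% downward. The median log2 ratio was 0.07 over all 10 members, 0.13 over the 9 measured members and 0.28 over all measured genes. Relative to that overall shift BCL2L11 was 1.75 and MCL1 0.32 above, and the other 8 members were below it, from -0.13 (PMAIP1) to -0.32 (BBC3 and BAK1). Thus the small positive ratios of BCL2L1, BID, PMAIP1 and BCL2 turn negative once the ratios are centred. For BCL2 this was set in advance, because the added 1 TPM far exceeds its level and holds its ratio at 0.01. Of the members 9 were measured. BCL2 was below the minimum, and BCL2L11 reached it only through its value in AS, so its ratio had to be large. The 10 genes together summed to 825 TPM in SC and 857 in AS.

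The guardians were carried by BCL2L1 and MCL1, with almost no BCL2. BCL2L1, which encodes BCL-XL, was at 166 TPM in SC and 183 in AS, a log2 ratio of 0.15, and its coverage was 233 and 238 reads per base. MCL1, a short-lived guardian, was at 37.1 and 57.1 TPM, 1.54-fold higher in AS. The TPM column gave a log2 ratio of 0.61, coverage on the TPM scale 0.60 and FPKM 0.49, and relative to the median of genes of like base composition MCL1 was at -0.05. The assembled locus, a transcribed region built from the reads, held the same values as the annotated gene for MCL1 and adds no second measurement. MCL1 lies on chromosome 1 from 150547032 to 150552066 on the minus strand, in the coordinates of the tables (GRCh37). BCL2, the founding member, was at 0.0282 and 0.0353 TPM with a coverage of 0.0517 and 0.0588 reads per base. No assembled locus lay at BCL2 in either library, and at this coverage no difference was detectable.

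Because MCL1 was higher and BCL2L1 nearly level, the quotient of BCL2L1 to MCL1 transcripts was 4.46 in SC and 3.21 in AS. The guardians summed to 203 TPM in SC and 240 in AS, which was 24.6% and 28.0% of the family total. The same quotient was 3.68 and 2.70 from coverage put on the TPM scale, and 4.68 and 3.32 in the assembled loci. In each of these measures it was lower in AS, and BCL2L1 exceeded MCL1 in both libraries. Relative to the median of genes of like base composition the order of the ratios turned, with BCL2L1 at 0.21 and MCL1 at -0.05. The quotient itself was not taken with that adjustment.

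The effectors stood nearly level in TPM and in coverage on the TPM scale. BAX was at 245 TPM in SC and 241 in AS, with a log2 ratio of -0.03 in TPM and 0.00 in coverage. BAK1 was at 82.4 and 80.5 TPM, with -0.03 and -0.06. In FPKM both were lower in AS, at -0.13 (BAX) and -0.14 (BAK1), and centred on the overall shift they were at -0.31 and -0.32. The pseudogene BAK1P1, listed at 7.08 and 6.97 TPM, may share reads with BAK1, and how the counting treated such reads is unknown. BAX transcripts were 2.98 times as abundant as BAK1 transcripts in SC and 2.99 times in AS. In coverage on the TPM scale the same quotient was 1.05 and 1.10, so its size depended on the column.

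Of the 5 BH3-only genes, BAD was the most abundant in TPM and BCL2L11 the only one past 2-fold there. BAD, which binds BCL2 and BCL-XL and is held inactive by phosphorylation, was at 264 TPM in SC and 259 in AS (log2 ratio -0.03). It overlaps GPR137 on the opposite strand, at 77.1 and 67.8 TPM. The library kit keeps strand, but whether the counting used it is unknown, so reads of the pair may not be fully separated. BID, which is cleaved by caspase 8 and links death receptors to mitochondria, was at 20.0 and 22.0 TPM. The log2 ratio of BID was 0.13 in TPM and -0.04 in coverage, so the direction depended on the column.

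PUMA, from BBC3, binds all the guardians. BBC3 was at 8.90 TPM in SC and 8.63 in AS (log2 ratio -0.04), with a coverage of 4.52 and 3.80. Its assembled locus was at 14.0 and 10.6 TPM, a log2 ratio of -0.37. That locus did not span the same bases in both libraries, and its coverage was 11.9 and 5.27 reads per base, 0.444 times as high in AS. PMAIP1, which binds MCL1 in particular, was at 1.56 and 1.84 TPM with a log2 ratio of 0.15, and its assembled locus gave 0.21. The coverage of the BBC3 assembled locus was past 2-fold downward as a plain quotient, not scaled for library depth and with nothing added. It is therefore unlike the other 2-fold calls, and its share over all measured genes was not taken. In no other column was BBC3 past 2-fold.

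BCL2L11, the gene of BIM, lies on chromosome 2 from 111876955 to 111926024 on the plus strand (GRCh37, as in the tables). It was at 0.327 TPM in SC and 4.43 in AS, 13.6-fold higher, with a log2 ratio of 2.03 after 1 TPM was added to both. Its coverage was 0.600 and 1.08 reads per base, 1.81-fold higher in AS and 1.99-fold after scaling for library depth. With 1 added on the TPM scale the log2 ratio in coverage was 0.32. The assembled locus was at 1.54 and 4.38 TPM, 2.85-fold higher, with a log2 ratio of 1.08. The coverage of that locus was 2.82 and 6.76 reads per base, 2.39-fold higher in AS before scaling. All measures put BCL2L11 higher in AS, and they differ in size from 1.81-fold to 13.6-fold. The annotated gene had a depth of about 1 read per base or less. In coverage no member passed 2-fold upward, against 9.47% of measured genes, or downward, against 0.863%. Of the 9 members with an assembled locus in both libraries, 1 (BCL2L11) passed 2-fold upward there, against 16.1% of the 13276 measured genes with such a locus, and none downward, against 3.05%.

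**Figure D2:**
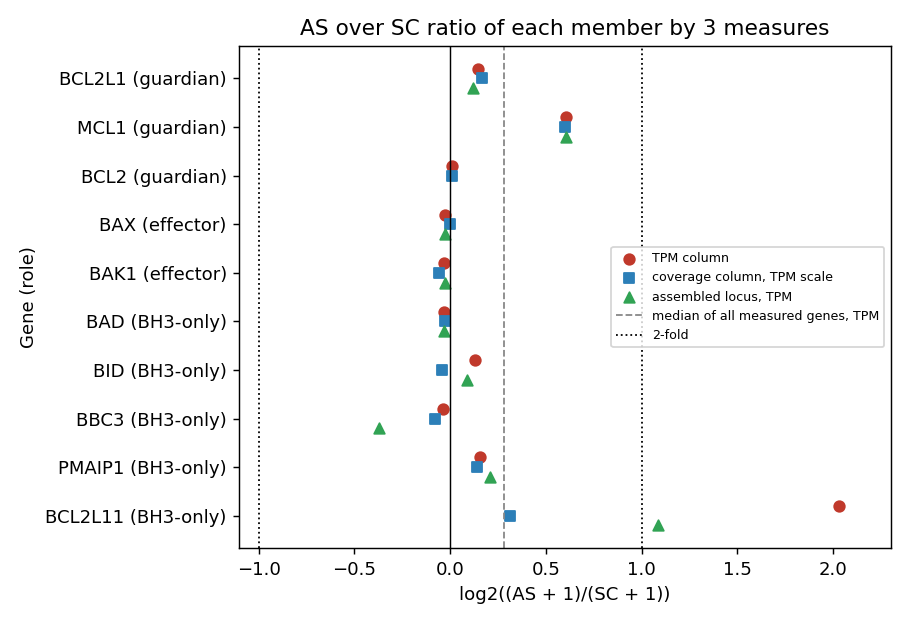
The log2((AS + 1)/(SC + 1)) ratio of each member in the TPM column (circles), the coverage column on the TPM scale (squares) and the assembled locus (triangles), with dotted lines at 2-fold and a dashed line at 0.28, the median of all measured genes in TPM. For MCL1 the 3 points lie near 0.6, its assembled locus being the same record as the annotated gene, whereas for BCL2L11 they spread from 0.32 to 2.03, and BCL2 has no assembled locus.

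The spread of the BCL2L11 values went with a shift in its coverage per FPKM. The most frequent value was 3.62 in SC and 3.54 in AS. Of rows above 0, 54.55% in SC and 52.56% in AS lay within 1% of it. A lower value means a higher FPKM for the same reads per base. BCL2L11 was at 3.62 in SC and at 0.520 in AS, a 6.97-fold fall. Its 17 annotated coding transcripts run from 243 to 5231 bases. The tables hold no values per transcript, so how reads were divided among these transcripts was not tested. Among 13630 measured genes, 88 including BCL2L11 had a fall of that size or larger, and 4.05% fell by 2-fold or more.

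For the other 9 members coverage per FPKM differed by at most 1.16-fold between the libraries. MCL1 was at 3.37 and 3.28 and BAX at 1.22 and 1.21. BID, at 1.80 and 1.55, moved most among these 9. Of the 2251 genes at least 2-fold higher in TPM, 54.3% were also at least 2-fold higher in coverage, so BCL2L11 was one of many that were past 2-fold in TPM and not in coverage.

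**Figure D3:**
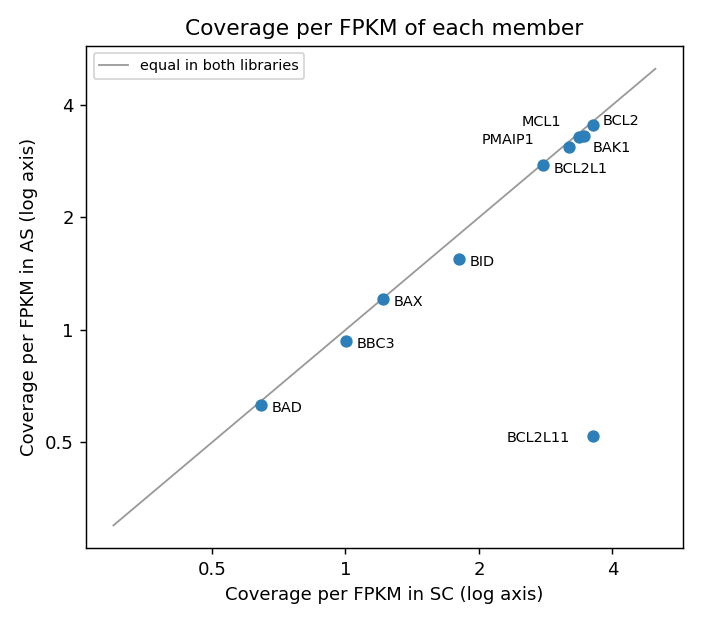
Coverage per FPKM of each member in SC (horizontal) against AS (vertical), both on log axes, with a line of equality. Of the 10 points 9 lie on or just below the line, and BCL2L11 lies far below it at 3.62 in SC and 0.520 in AS.

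The order of the levels was almost the same in both libraries but depended on the column. In TPM the order in SC was BAD, BAX, BCL2L1, BAK1, MCL1, BID, BBC3, PMAIP1, BCL2L11 and BCL2, and in AS BCL2L11 passed PMAIP1. With no replicates, whether neighbours in this order differ cannot be judged, and the first of these, BAD and BAX, stood at 264 and 245 TPM in SC. In coverage BCL2L1 came first (233 in SC), ahead of BAX (151), BAK1 (144), BAD (86.1) and MCL1 (63.3). BAD, first in TPM but behind BCL2L1, BAX and BAK1 in coverage, had the lowest coverage per FPKM of the members there, 0.644.

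The sum of guardians over the sum of BH3-only genes therefore had no single size. It was 0.688 in SC and 0.813 in AS in TPM, and 2.65 and 3.25 in coverage on the TPM scale. Without BAD it was 6.58 and 6.51 in TPM, and 11.5 and 13.8 in coverage. The quotient of guardians to effectors was 0.618 and 0.748 in TPM and 1.01 and 1.24 in coverage. Each of these was higher in AS than in SC, except the quotient without BAD in TPM. The BH3-only genes summed to 295 and 296 TPM and the effectors to 328 and 321 TPM.

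Ratios across the transcriptome followed base composition, and the members span most of its range, from 37.2% GC (PMAIP1) to 69.7% (BBC3) in the longest coding transcript. Measured coding genes were split into 10 groups of equal size, or deciles, by GC content. In the decile from 44.6% to 47.5%, which holds BCL2L11, MCL1 and BCL2, the median log2 ratio was 0.66 in TPM and 0.53 in coverage. MCL1, at 0.61 and 0.60, was close to both medians. BCL2L11 was above the first, at 2.03, and below the second, at 0.32, where the added 1 TPM pulls a gene of its low level toward 0.

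The other members were split in sign along that trend, but over a narrow range, from 0.15 to -0.04. PMAIP1, BID and BCL2L1, at 56.9% GC or less, were above 0. BAX, BAK1, BAD and BBC3, at 58.8% GC or more, were below 0. The decile medians were below 0 from 56.8% GC upward. PMAIP1, at 0.15, lay below the median of 0.89 of its low-GC decile, and BID, at 0.13, below 0.44. BCL2L1, at 0.15, lay above the median of -0.07 of its decile, and BAD and BBC3, at -0.03 and -0.04, above -0.29. In all, 6 members were above and 4 below the median of their decile. The 4 include BCL2, whose ratio of 0.01 was fixed by the added 1 TPM. Of the 9 measured members 3 were below, against 50.0% of measured coding genes. The part of base composition in the MCL1 and BCL2L11 values was not tested.

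**Figure D4:**
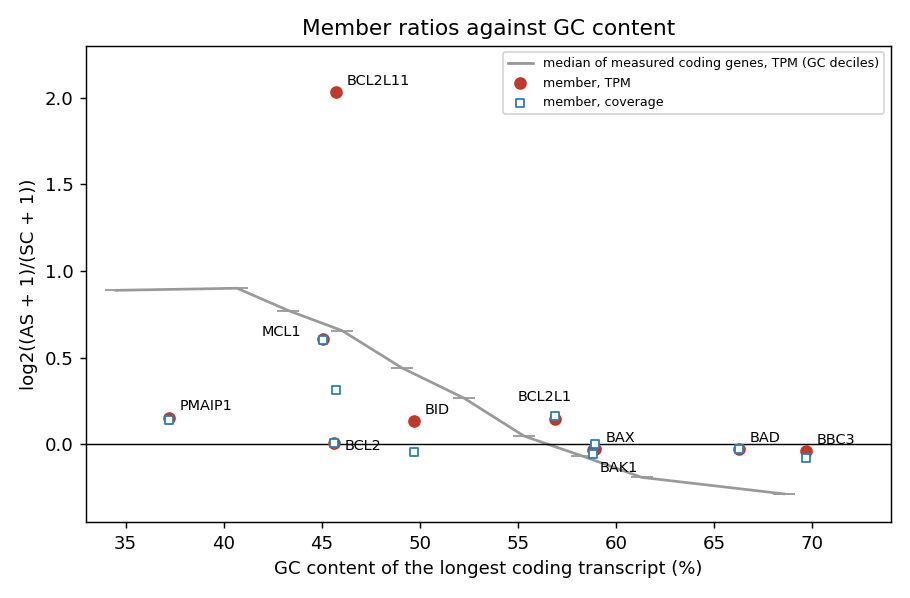
The log2((AS + 1)/(SC + 1)) ratio of each member (filled circles, TPM; open squares, coverage on the TPM scale) against the GC content of its longest coding transcript in percent, with the median of measured coding genes per GC decile as a grey line in TPM. MCL1 lies near the line, BCL2L11 stands above it in TPM and below it in coverage, and PMAIP1, BCL2 and BID lie below it. The place of BCL2 was set by the added 1 TPM.

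The 5 members with a seed match had log2 ratios of 2.03 (BCL2L11), 0.61 (MCL1), 0.15 (PMAIP1), 0.01 (BCL2) and -0.04 (BBC3). The 5 without a match had 0.15 (BCL2L1), 0.13 (BID) and -0.03 for each of BAX, BAK1 and BAD. The highest 2 values carried a match, and the remaining 3 genes with a match overlapped the genes without. Of these values, BCL2L11 was measured only through AS and was at 0.32 in coverage, and that of BCL2 was fixed by the added 1 TPM. Relative to its GC decile MCL1 was at -0.05. The genes without a match were at 0.03 to 0.26 on that scale, except BID at -0.31. Ratios of all measured genes with and without a match were not compared. Of the genes with a match, BBC3 was at 69.7% GC and the others were at 37.2% to 45.7%. Those others lay below every gene without a match, at 49.7% to 66.3%. Low GC content and a match thus went together, and their separate parts in the ratios were not tested. The 3′ UTR was 2824 bases long in MCL1, 1553 in PMAIP1, 978 in BBC3 and 5279 in BCL2, against 379 bases in BAD and at most 1497 in the others without a match.

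Other genes of the pathway were read in 6 lists of 63 genes, of which 51 were measured. In each list the 3 measured genes with the largest absolute log2 ratio are named. Of 14 further genes of the family and its BH3-bearing relatives, 10 were measured, 1 was at least 2-fold higher in TPM, against 16.5% of all measured genes, none was lower, against 2.17%, and the median was -0.11, against 0.28. BECN1, an autophagy protein that binds BCL2, was at 11.7 and 28.2 TPM (1.20 in TPM and 1.06 in coverage). BCL2L13, a mitophagy receptor, was at 15.7 and 23.6 TPM (0.56). BNIP3L, also a mitophagy receptor, was at 26.3 and 18.2 TPM (-0.51) but had a log2 ratio of 0.55 in coverage.

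Downstream of the mitochondrion, 1 of 7 measured genes of the caspases and the apoptosome passed 2-fold upward in TPM, against 16.5% of all measured genes, and none did in coverage, against 9.47%. CASP2, an initiator caspase, was at 2.01 and 6.42 TPM (1.30 in TPM and 0.62 in coverage). Its assembled locus was at 0.443 and 16.1 TPM, a log2 ratio of 3.57, so the size depended on the measure. CYCS, the cytochrome c that the pores release, was at 25.6 and 44.5 TPM, with 0.78 in TPM and 0.75 in coverage against a median of 0.90 for its GC decile. CASP8, the initiator caspase that cleaves BID, was at 3.19 and 5.52 TPM, with 0.64 in TPM and 0.05 in coverage. The list median was 0.43 in TPM and 0.06 in coverage.

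The inhibitor of apoptosis proteins BIRC2 and BIRC3 had the largest ratios of any listed gene in coverage. BIRC2, which encodes cIAP1, was at 4.26 TPM in SC and 19.6 in AS, with log2 ratios of 1.97 (TPM), 1.84 (coverage) and 1.21 (assembled locus). BIRC3, which encodes cIAP2, was at 5.14 and 16.6 TPM, with 1.52, 1.48 and 1.94. Both are of low GC content, 38.1% and 34.8%, in a decile of which 41.4% passed 2-fold upward in TPM. XIAP, which binds caspases directly, was at 1.46 and 3.26 TPM (0.79 in both columns). In the list of these proteins and of those released from mitochondria, 2 of 9 measured genes passed 2-fold upward in TPM, against 16.5% of all measured genes. None passed downward, against 2.17%, and the median was 0.50.

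Among the 8 measured genes of the death receptor list, 1 was at least 2-fold lower in TPM, against 2.17% of all measured genes, and none in coverage, against 0.863%. None was 2-fold higher in either column, against 16.5% of all measured genes in TPM and 9.47% in coverage, and the median was 0.29. TNFSF10, the ligand TRAIL, was at 2.65 and 0.748 TPM (-1.06), but coverage gave 0.22 and the assembled locus 0.04. This gene, the one counted as lower, reached a mean of 1 TPM only through SC, which favours a lower value in AS. TRADD, an adaptor of the TNF receptor, was at 69.9 and 35.3 TPM, with -0.97 (TPM), -0.94 (coverage) and -0.49 (assembled locus). RIPK1 was at 15.6 and 23.9 TPM (0.58 and 0.83 in coverage).

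All 10 measured genes among the binding partners and turnover factors of BCL2 proteins had a TPM ratio above 0, as had 66.2% of all measured genes. None was past 2-fold in TPM, against 16.5% of all measured genes upward and 2.17% downward, and the median was 0.43. In coverage 9 of the 10 were above 0, against 67.6% of all measured genes. Below the TPM median of their GC decile lay 7 of the 10, against 50.0% of measured coding genes. VDAC2, the outer membrane channel that BAK binds, was at 142 and 231 TPM (0.69), and VDAC3 at 77.0 and 126 TPM (0.70). HUWE1, a ubiquitin ligase of MCL1, was at 12.5 and 23.6 TPM, with 0.87 in TPM and 1.05 in coverage. It was the one gene of this list past 2-fold in coverage, where 9.47% of all measured genes passed upward. Of 7 measured transcription factors that act on BH3-only genes, none was past 2-fold in TPM. Of all measured genes 16.5% were past it upward and 2.17% downward. The list median was 0.24, against 0.28 over all measured genes. The named ones were STAT3 (67.3 and 125 TPM, 0.89 in TPM and 0.49 in coverage), FOXO3, a regulator of BCL2L11, at 0.699 and 1.37 TPM (0.48), and ATF4, the factor of the integrated stress response, at 738 and 604 TPM (-0.29). FOXO3 reached a mean of 1 TPM only through AS, which favours a higher value there, and the median of its GC decile was 0.44.

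**Figure D5:**
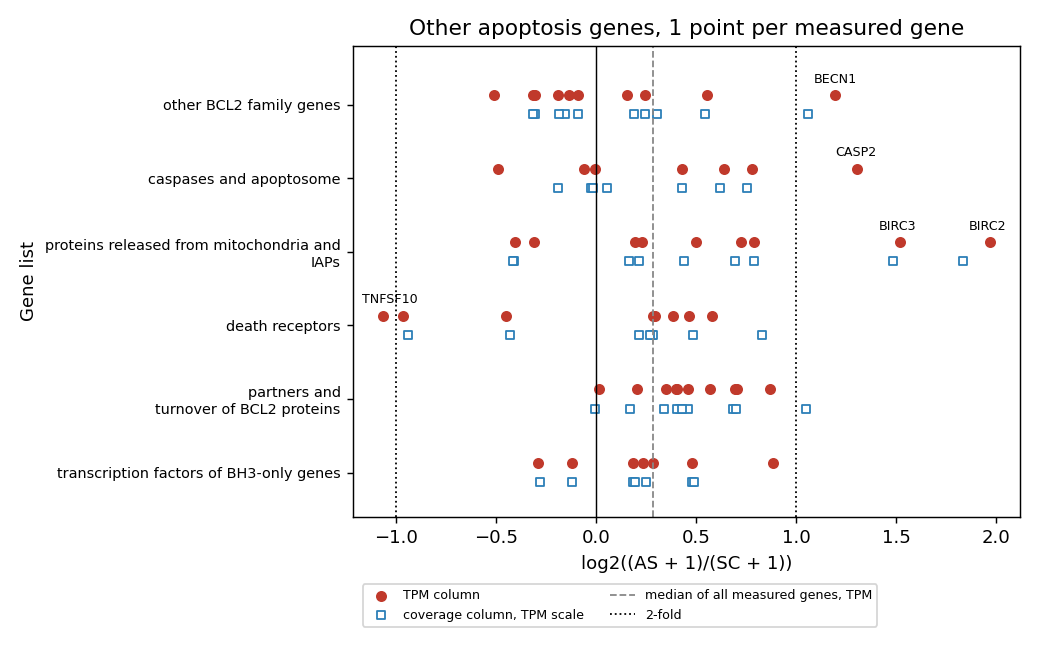
The log2((AS + 1)/(SC + 1)) ratio of each measured gene in 6 lists of the apoptosis pathway, in TPM (filled circles) and in coverage on the TPM scale (open squares), with dotted lines at 2-fold and a dashed line at the median of all measured genes in TPM. BIRC2, BIRC3 and BECN1 are past 2-fold in both columns, whereas CASP2 and TNFSF10 are past 2-fold in TPM only.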

How the data were processed

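Total RNA of 1 SC and 1 AS culture was sequenced from directional libraries, per the labels' protocols. The authors deposited 1 table per library with coverage, FPKM and TPM columns, per the file headers; coverage is reads per base and is not scaled for library size. TPM of assembled loci added up to 1000000 per library, and that of annotated genes, on one scale with them, to 973681 (SC) and 968917 (AS). No source used here gives the aligner or the counting program. The submitters' processing notes name GRCh38 and hg38, but of 52353 gene identifiers shared with GENCODE release 29 only 365 had the same start, and the table coordinates are those of GRCh37. Read counts are unknown, so precision is too.

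Rows of annotated genes were summed by symbol and compared as log2((AS + 1)/(SC + 1)) on TPM. To bring coverage to the TPM scale it was divided by 3.62 in SC and 3.54 in AS, the library's most frequent coverage per FPKM, then multiplied by 1.98 and 2.13, the TPM per FPKM. The assembled locus was the one on the same strand with the largest overlap relative to the joint span. GC content is that of the longest coding transcript in GENCODE release 29, available for 10638 measured genes and all 10 members. Named genes were the 10 members and, in each of 6 lists, the 3 measured genes with the largest absolute ratio. Some listed genes are not reported here. Members and lists were chosen with earlier results of these data known. The calculation of the ratios was tested on simulated data with known fold changes. Alternatives changed the pseudocount, column, scaling, filter and base composition, with Python 3.11.15, numpy 2.4.6 and pandas 2.3.3.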

Additional observations from a re-analysis of the deposited data

How the results depend on the processing

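The median log2 ratio over the 10 members, 0.07, was 0.11 with a pseudocount of 0.1, 0.03 with 5, 0.02 in FPKM, 0.00 in coverage, 0.09 in the assembled loci, 0.04 relative to the median of the GC decile, -0.21 after centring on the median of all measured genes and -0.28 after centring on the trimmed mean. It was 0.13 over the 9 members of at least 1 TPM and -0.03 over the 7 of at least 5 TPM. The count of members at least 2-fold higher, 1, was 0 with a pseudocount of 5, in coverage and among members of at least 5 TPM, which leaves BCL2L11 out by construction. BCL2L11 was at 0.82 with a pseudocount of 5, at 0.32 in coverage and at 3.41 with a pseudocount of 0.1; the pseudocount weighs on a gene of such low level, and the cause of the difference in coverage was not tested. The other 9 members stayed within 2-fold under each of the 8 alternative measures that gave a value, of which the assembled loci gave none for BCL2. The coverage of the assembled loci was not among these measures. No paired analysis was possible because each group is 1 library. Depth limits BCL2, BCL2L11 and PMAIP1 most.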

Other observations

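BIRC2 and BIRC3 are neighbours on chromosome 11, which was noticed after their values were seen. Within 500 kb on either side of the pair, 7 genes with a single row were measured, of which 4 were at least 2-fold higher in AS in TPM, against 16.5% of all measured genes, and 2, BIRC2 and BIRC3, in coverage, against 9.47%. These counts include the pair that prompted the look, and MMP7, which reached a mean of 1 TPM only through AS. The coding genes of the window lie in low-GC deciles of which 41.4% or 34.4% of genes passed 2-fold upward in TPM. YAP1, the transcriptional coactivator of the Hippo pathway, was at 6.92 and 16.2 TPM, with a log2 ratio of 1.11 in TPM and 0.68 in coverage. TMEM123 was at 14.1 and 23.7 TPM (0.71 and 0.70), and the protease gene MMP7 at 0.471 and 2.64 TPM (1.31 and 0.62).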
